A study of Homo sapiens with 24 samples.

Results

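The genes described here are 9 transcription factors listed as factors of breast epithelial lineages: TFAP2C, TFAP2A, GRHL2, ELF3, FOXC1, FOXI1, SOX9, XBP1 and GATA3. They were taken by symbol from the deposited expression table, which held 9 of the 9 listed genes among 14114 genes in all. The rule used symbols and no measured value, and the list itself was drawn up with earlier results of these data known. RNA sequencing covered MDA-MB-468 cells and 2 further human breast cancer lines, MDA-MB-231 and MDA-MB-157, which the labels describe as of basal subtype, negative for oestrogen receptor alpha and progesterone receptor, and without HER2 overexpression. A 3 h exposure was given to each line, with DMSO (the vehicle), thalidomide at 1000 nM, BETi-211 at 1000 nM or BETd-246 at 100 nM. Where values are given for all lines without their names, MDA-MB-157 comes first, MDA-MB-231 next and MDA-MB-468 last. The 12 groups of line and treatment held 2 libraries each, called independent biological replicates in the series text, 24 in all. DMSO and thalidomide both served as controls, so each line had 4 control libraries. The labels name no engineered allele in any line, and each condition was measured at 1 dose and 1 time.

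BET proteins, among them BRD2 and BRD3, bind acetylated histones through bromodomains and support transcription by RNA polymerase II, often at genes that control cell identity. BETi-211 is a BET inhibitor, which occupies the bromodomains. BETd-246 is a BET degrader, which brings BET proteins to the ubiquitin ligase adaptor cereblon, the protein that thalidomide binds. Most of the factors measured here sit at different places in the mammary epithelial program. The AP-2 factors TFAP2C and TFAP2A act in ectodermal and mammary epithelium. GRHL2 and ELF3 maintain epithelial differentiation and junctions, and FOXC1 and SOX9 are linked to basal-like and progenitor states. GATA3 and XBP1 are prominent in luminal cells. FOXI1 is a forkhead factor best known from ionocytes of the kidney, inner ear and airway.

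Levels are given in FPKM, fragments per kilobase of transcript at a fixed number of mapped fragments, which is scaled for gene length and library size. A change is the difference of mean log2(FPKM + 1) between groups, a scale that understates changes of genes at low levels. A gene was called higher or lower at a Benjamini-Hochberg adjusted p below 0.05 in a limma fit of all 14114 genes. Because FPKM is a share of the library, every change is relative to the other RNA in it. In bulk RNA, fewer cells that express a gene and less of its RNA per cell cannot be told apart.

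The table held no read counts, so depth is not known directly. The size of the smallest steps between low values gave an estimate of 42100000 to 63300000 fragments in 16 libraries. FPKM summed to 454289 to 534179 per library, and replicate libraries correlated at 0.9919 to 0.9985 across genes, which are not independent. Of the genes for the labelled receptor status, ESR1 and PGR were not among the genes of the table, and ERBB2 had control means of 12.4 to 18.6 FPKM. The epithelial and basal keratin markers separated the lines despite the shared basal label. In the controls of MDA-MB-468, CDH1 stood at 37.9 FPKM, EPCAM at 152.4, KRT5 at 752 and KRT17 at 1005. CDH1 was at 0.406 FPKM in MDA-MB-157 and 0.177 in MDA-MB-231, where KRT5 was at 0.536 and 0.00188 and VIM at 1996 and 891 against 12.3 in MDA-MB-468. Other epithelial markers were expressed in these lines, KRT8 at 165.3 and 159.5 FPKM and KRT18 at 302.5 and 221.1, against 1306 and 1148 in MDA-MB-468. KRT19 and CLDN4 were at 73.2 and 42.2 FPKM in MDA-MB-231 and at 0.0248 and 0.572 in MDA-MB-157. MDA-MB-157 also held COL3A1 at 354 FPKM, LUM at 55.4 and CD14 at 56.6, all under 1 FPKM in the other lines. Of 11 endothelial and fibroblast markers, 6 were in the table. Their summed level in MDA-MB-157 was 487 to 526 FPKM in the controls, 495 to 498 under BETi-211 and 575 to 594 under BETd-246, and at most 3.03 FPKM in the controls of the other lines. The 8 epithelial markers of MDA-MB-468 summed to 4002 to 4476 FPKM in the controls, 4360 to 4556 under BETi-211 and 4713 to 4800 under BETd-246. The part of these markers in the results was not tested.

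Promoter sequence is shown for 3 of the genes, chosen after their values were seen, because their responses differed. FOXI1 had the lowest change of all genes with BETi-211 in MDA-MB-468, FOXC1 moved in opposite directions with the 2 compounds in MDA-MB-231, and TFAP2A kept the largest share of its level with BETd-246 among the members expressed in MDA-MB-157 and MDA-MB-231. Each sequence is the 250 bases before a RefSeq transcription start in GRCh38.p14, read 5′ to 3′ on the strand of the gene. The regions are chr5:170105647-170105896 on the + strand for FOXI1, chr6:1609665-1609914 on the + strand for FOXC1, and chr6:10419660-10419909 on the - strand for TFAP2A. The TFAP2A sequence lies before its outermost start. Capitals mark matches, on either strand, to 4 motifs. The AP-2 site was searched as GCCNNNGGC. The letters of the GC box were GGGCGG, and those of the TATA box were TATAAA. The CCAAT box was searched by the letters of its name.
FOXI1: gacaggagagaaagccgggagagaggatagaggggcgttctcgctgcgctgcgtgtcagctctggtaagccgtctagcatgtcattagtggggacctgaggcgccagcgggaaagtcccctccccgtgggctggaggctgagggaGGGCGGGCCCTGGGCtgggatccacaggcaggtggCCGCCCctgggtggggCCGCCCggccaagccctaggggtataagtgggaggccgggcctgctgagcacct
FOXC1: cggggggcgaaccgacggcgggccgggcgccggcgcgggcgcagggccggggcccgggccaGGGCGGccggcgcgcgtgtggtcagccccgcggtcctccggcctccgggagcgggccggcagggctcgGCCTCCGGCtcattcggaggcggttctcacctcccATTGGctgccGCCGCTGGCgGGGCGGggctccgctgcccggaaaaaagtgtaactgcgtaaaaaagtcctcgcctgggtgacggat
TFAP2A: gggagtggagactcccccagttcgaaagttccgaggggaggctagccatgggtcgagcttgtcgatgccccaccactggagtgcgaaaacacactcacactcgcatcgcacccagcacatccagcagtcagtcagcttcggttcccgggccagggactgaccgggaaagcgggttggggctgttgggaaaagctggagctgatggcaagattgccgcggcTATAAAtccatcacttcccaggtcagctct
The FOXI1 sequence held 1 AP-2 site, whose far edge was 99 bases before the start, and 3 GC boxes at 105, 70 and 54 bases. The first GC box and the AP-2 site adjoin without sharing a base. The FOXC1 sequence held 2 AP-2 sites at 121 and 76 bases, 2 GC boxes at 189 and 66 bases and 1 CCAAT box at 86 bases. The TFAP2A sequence held 1 TATA box, 30 bases before the start, and no match to the other motifs. Among 35116 RefSeq promoter sequences of the same length, 19.8% held an AP-2 site, 42.6% a GC box, 10.7% a TATA box and 32.0% a CCAAT box. These matches describe letters and not binding. Of the 9 genes, 6 had an entry in the promoter table, and TFAP2C, GRHL2 and SOX9 did not.

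Across the 9 genes and 3 lines there are 27 pairs of a gene and a line. In 20 of them the control mean was at least 1 FPKM, and in the other 7 the gene was close to 0. With BETd-246 all 20 expressed pairs were called lower, and between 11.2% and 66.8% of the control mean was left, with a median of 28.0%. With BETi-211, 17 of the 20 were called lower, 2 were called higher and 1 was not called. The level with BETi-211 ranged from 8.45% to 130.1% of the control mean, with a median of 67.7%. In each of the 20 pairs, both treated libraries lay outside the range of the 4 control libraries, for each compound. Neither the calls nor this separation were counted over all genes with at least 1 FPKM in the controls. These counts of pairs thus do not set the members apart. Of the 7 pairs near 0, none was called with BETd-246, and with BETi-211 1 was called lower (ELF3 in MDA-MB-157) and 1 higher (GATA3 in MDA-MB-157). The doses of the 2 compounds differed, so their values stand side by side without a test between them.

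Counted by line, BETd-246 lowered 5, 6 and 9 of the 9 genes, in the order given, and raised none. Among all genes the share called lower with BETd-246 was 32.4%, 33.3% and 33.7% in the same lines, and the share called higher was 19%, 14.8% and 20.1%. The median change of the 9 genes was -0.66, -1.01 and -1.68, beside medians of -0.027, -0.047 and -0.029 over all genes. BETi-211 lowered 4 and raised 2 of the 9 genes in MDA-MB-157, lowered 5 and raised 1 in MDA-MB-231, and lowered 9 in MDA-MB-468. Among all genes, 30.9%, 31.4% and 32.5% were called lower and 14.9%, 18.7% and 21.3% higher with BETi-211. The medians for the 9 genes were -0.031, -0.14 and -0.55, beside -0.033, -0.031 and -0.014 over all genes. These medians include members near 0 in the line, 4, 3 and 0 of the 9, whose change is near 0 on this scale.

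**Figure D1:**
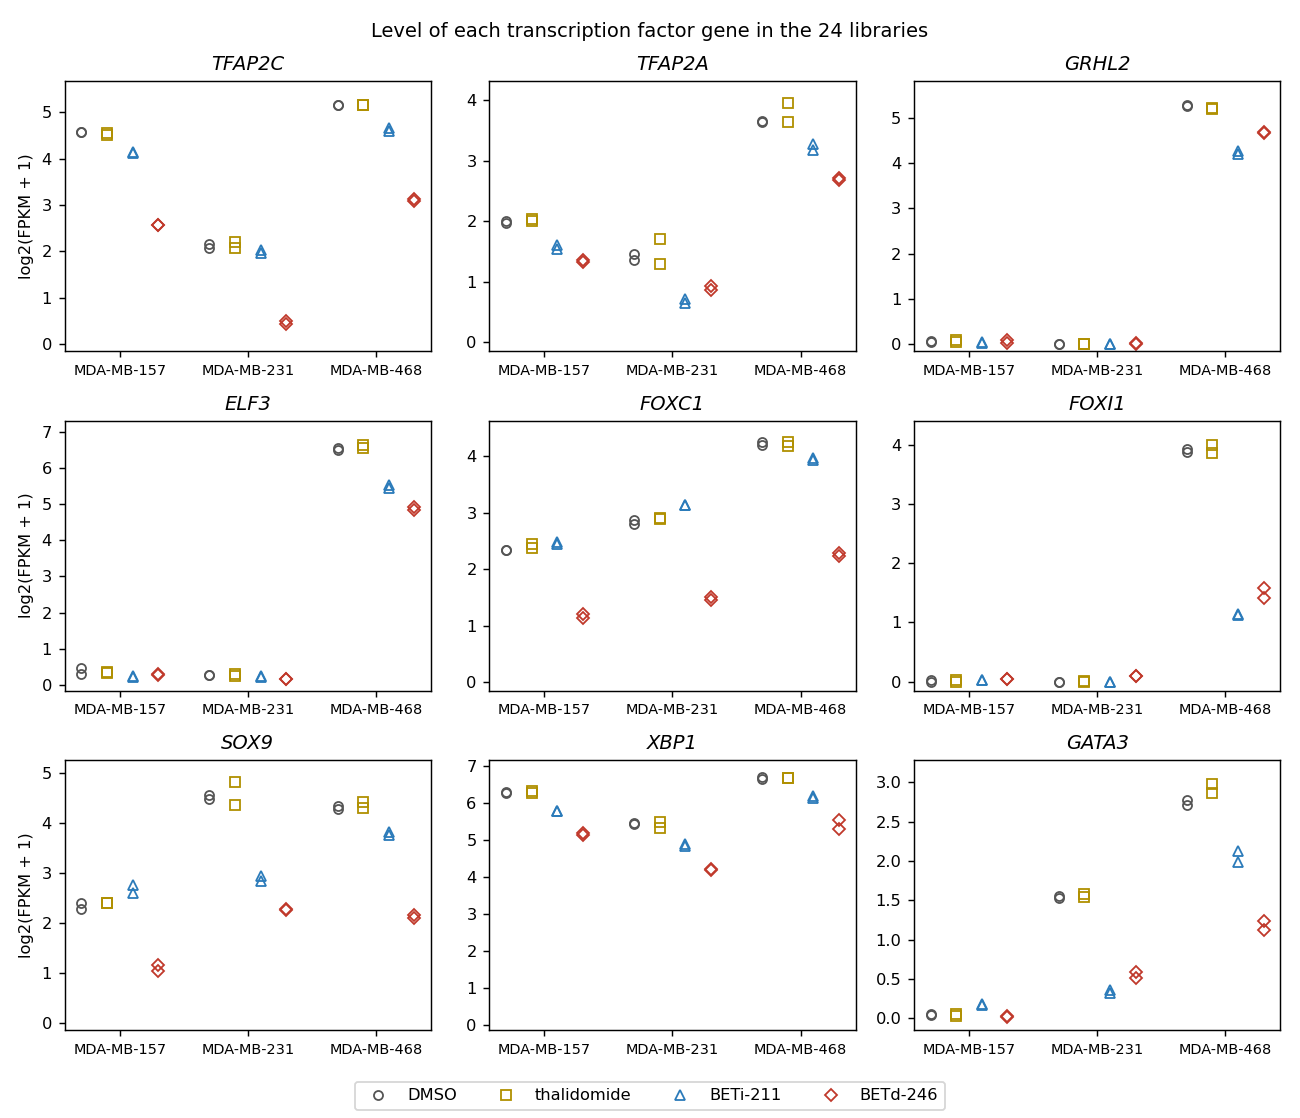
Level of each of the 9 genes in every library, as log2(FPKM + 1) on the vertical axis, with the 3 lines on the horizontal axis and 1 symbol per library for DMSO, thalidomide, BETi-211 and BETd-246. GRHL2, ELF3 and FOXI1 were near 0 outside MDA-MB-468, whereas TFAP2C, TFAP2A, FOXC1, SOX9 and XBP1 were measured in each line.

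TFAP2C encodes AP-2 gamma, a factor of mammary luminal and progenitor cells, and lies on chromosome 20 (56629302 to 56639283, + strand, GENCODE 29 on GRCh38). TFAP2C was among the members that BETd-246 lowered strongly in all 3 lines. In MDA-MB-157 it stood at 22.8 and 23 FPKM with DMSO, 21.9 and 22.6 with thalidomide, 16.5 and 16.7 with BETi-211, and 4.89 and 4.90 with BETd-246. Its MDA-MB-231 values were 3.20 and 3.46 FPKM with DMSO, 3.61 and 3.20 with thalidomide, 3.06 and 2.89 with BETi-211, and 0.349 and 0.409 with BETd-246. In MDA-MB-468 it stood at 34.7 and 35 FPKM with DMSO, 34.9 and 35 with thalidomide, 24.4 and 23.1 with BETi-211, and 7.70 and 7.48 with BETd-246. In each line the groups separated in the same order, with controls on top, BETi-211 in the middle and BETd-246 at the bottom, and no 2 of these overlapped. BETd-246 left 21.7%, 11.2% and 21.7% of control means of 22.6 ± 0.471, 3.37 ± 0.201 and 34.9 ± 0.145 FPKM (SD, n = 4). By limma, the changes with BETd-246 were -1.998 (SE 0.040, adjusted p 3.51e-15), -1.66 (SE 0.040, adjusted p 1.76e-14) and -2.06 (SE 0.040, adjusted p 9.83e-16). Ordered from the lowest change among 14114 genes, these stood at places 42, 120 and 70.

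The fall of TFAP2C with BETi-211 was smaller, to 73.5%, 88.4% and 68.1% of control. The limma changes were -0.42 (SE 0.040, adjusted p 2.63e-07), -0.14 (SE 0.040, adjusted p 0.0109) and -0.54 (SE 0.040, adjusted p 1e-08). The call in MDA-MB-231 was lost without BETi-211 replicate 2 of that line (change -0.11, adjusted p 0.135) and with 3 other scalings of the values (adjusted p 0.155 to 0.312). On the tested scale the BETd-246 effect on TFAP2C was smaller in MDA-MB-231 than in MDA-MB-157 (difference MDA-MB-157 minus MDA-MB-231 -0.34, adjusted p 0.000905). That order rests on the constant of 1 FPKM added before the logarithm. With a constant of 0.1 FPKM the difference was 0.68 (adjusted p 2.86e-05), and the share of control left was lowest in MDA-MB-231.

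TFAP2A encodes AP-2 alpha, a paralog that binds the same kind of GC-rich site, and lies on chromosome 6 (10393186 to 10419659, - strand). Its control levels were lower than those of TFAP2C in each line, and BETd-246 left a larger share of them. In MDA-MB-157 its level was 3.0 and 2.90 FPKM with DMSO, 3.02 and 3.10 with thalidomide, 1.90 and 2.06 with BETi-211, and 1.57 and 1.49 with BETd-246. In MDA-MB-231 its level was 1.74 and 1.57 FPKM with DMSO, 2.27 and 1.44 with thalidomide, 0.563 and 0.631 with BETi-211, and 0.813 and 0.895 with BETd-246. In MDA-MB-468 its level was 11.5 and 11.7 FPKM with DMSO, 11.5 and 14.5 with thalidomide, 8.70 and 8.06 with BETi-211, and 5.55 and 5.39 with BETd-246. All treated libraries were below all controls of their line, although the 4 controls of MDA-MB-231 spread from 1.44 to 2.27 FPKM. BETd-246 left 51%, 48.6% and 44.5% of control, and BETi-211 65.8%, 34% and 68.1%. The limma changes with BETd-246 were -0.66 (SE 0.092, adjusted p 1.81e-05), -0.56 (SE 0.092, adjusted p 9.75e-05) and -1.03 (SE 0.092, adjusted p 7.48e-08). With BETi-211 they were -0.43 (SE 0.092, adjusted p 0.00112), -0.78 (SE 0.092, adjusted p 2.69e-06) and -0.50 (SE 0.092, adjusted p 0.000241). In MDA-MB-231 the level with BETi-211 was the lower of the 2, a reverse order to MDA-MB-157 and MDA-MB-468. The antisense genes TFAP2A-AS1 and TFAP2A-AS2 overlap its exons. The library kit did not mark strand, so their reads cannot be told apart from those of TFAP2A.

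GRHL2, a grainyhead factor that sustains genes of epithelial junctions, was expressed in 1 line. In MDA-MB-468 it stood at 37.6 and 37.1 FPKM with DMSO, 36.4 and 35.4 with thalidomide, 18.2 and 17.4 with BETi-211, and 24.4 and 24.6 with BETd-246. The controls lay highest, BETd-246 next and BETi-211 lowest, without overlap. BETi-211 left 48.6% of a control mean of 36.6 ± 0.957 FPKM (SD, n = 4), and BETd-246 left 66.8%, the mildest fall with BETd-246 among the 20 expressed pairs. The limma changes were -1.002 (SE 0.034, adjusted p 9.57e-13) with BETi-211 and -0.56 (SE 0.034, adjusted p 5.61e-10) with BETd-246. In MDA-MB-157 all 8 libraries were at 0.0177 to 0.0612 FPKM, and in MDA-MB-231 at 0 to 0.0187, with no call for either compound. Exons of an antisense gene that is not in the table overlap GRHL2, and reads of the 2 cannot be told apart.

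ELF3, an epithelium-specific ETS factor on chromosome 1 (202007945 to 202017188, + strand), had the same restriction to MDA-MB-468 in these data. In that line it stood at 88.7 and 93.2 FPKM with DMSO, 93 and 98.2 with thalidomide, 42.4 and 44.9 with BETi-211, and 27.7 and 29.3 with BETd-246. Both treated groups were far below the controls, and the 2 did not overlap. BETi-211 left 46.8% and BETd-246 30.5% of a control mean of 93.3 ± 3.88 FPKM (SD, n = 4). The limma changes were -1.08 (SE 0.047, adjusted p 1.4e-11) and -1.68 (SE 0.047, adjusted p 3.81e-14). In MDA-MB-157 and MDA-MB-231 no library exceeded 0.396 FPKM. BETi-211 gave a small call in MDA-MB-157, -0.13 (SE 0.047, adjusted p 0.0336), at a level of 0.178 and 0.187 FPKM against 0.245 to 0.396 in the controls. That call was lost without any 1 of 4 libraries of the line (adjusted p 0.0785 to 0.147). The antisense gene ELF3-AS1 overlaps exons of ELF3 and ranged from 0.0833 to 6.11 FPKM over the 24 libraries, against up to 98.2 for ELF3. Reads of ELF3-AS1 and ELF3 in shared exons cannot be told apart, so these values do not measure the antisense gene alone.

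FOXC1, a forkhead factor used as a marker of basal-like breast cancer, lies on chromosome 6 (1609972 to 1613897, + strand). It fell with BETd-246 in each line, whereas with BETi-211 it rose in MDA-MB-231 and fell in MDA-MB-468. Its values in MDA-MB-157 were 4.06 and 4.04 FPKM with DMSO, 4.21 and 4.45 with thalidomide, 4.47 and 4.60 with BETi-211, and 1.21 and 1.31 with BETd-246. Its values in MDA-MB-231 were 6.31 and 5.99 FPKM with DMSO, 6.46 and 6.43 with thalidomide, 7.82 and 7.79 with BETi-211, and 1.74 and 1.85 with BETd-246. Its values in MDA-MB-468 were 18.1 and 17.3 FPKM with DMSO, 17.1 and 18.1 with thalidomide, 14.3 and 14.6 with BETi-211, and 3.87 and 3.68 with BETd-246. With BETi-211 both libraries were above all controls in MDA-MB-157 and MDA-MB-231 and below them in MDA-MB-468. BETd-246 libraries were below the controls throughout, with 30.1%, 28.5% and 21.4% of control left. The limma changes with BETd-246 were -1.20 (SE 0.039, adjusted p 3.66e-13), -1.38 (SE 0.039, adjusted p 6.7e-14) and -1.97 (SE 0.039, adjusted p 9.83e-16).

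With BETi-211 the FOXC1 level was 108%, 124% and 81.8% of control. The limma changes were 0.095 (SE 0.039, adjusted p 0.057), 0.27 (SE 0.039, adjusted p 1.95e-05) and -0.27 (SE 0.039, adjusted p 1.66e-05), the first of which was not called. It was called under several other settings, for example with quantile normalization (0.19, adjusted p 0.000565). The BETi-211 effect on FOXC1 differed between MDA-MB-468 and MDA-MB-231 by -0.54 (limma, adjusted p 1.73e-06).

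FOXI1, on chromosome 5 (170105897 to 170109725, + strand), had the lowest change among the members with either compound on the log2(FPKM + 1) scale. The libraries of MDA-MB-468 gave 14.3 and 13.8 FPKM with DMSO, 15 and 13.6 with thalidomide, 1.22 and 1.18 with BETi-211, and 1.99 and 1.67 with BETd-246. The controls and the 2 compounds formed 3 groups without overlap, BETi-211 being the lowest. BETi-211 left 8.45% and BETd-246 12.9% of a control mean of 14.2 ± 0.633 FPKM (SD, n = 4). The limma change with BETi-211, -2.79 (SE 0.048, adjusted p 1.34e-15), was the lowest of the 14114 genes in that comparison. With BETd-246 it was -2.42 (SE 0.048, adjusted p 9.83e-16), at place 22 from the lowest. Outside MDA-MB-468 the gene was near 0, at 0 to 0.0329 FPKM in the 8 libraries of MDA-MB-157. In the MDA-MB-231 cells FOXI1 was listed at 0 in 5 of 8 libraries, at 0.00909 in 1 control, and at 0.0698 and 0.0662 with BETd-246. The latter was not called by limma (change 0.092, adjusted p 0.126), but was called with a constant of 0.1 FPKM (0.72, adjusted p 5.63e-05).

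SOX9, an HMG-box factor of progenitor states and cartilage, lies on chromosome 17 (72121020 to 72126420, + strand). BETd-246 lowered it in each line, while its response to BETi-211 differed in direction between lines. In MDA-MB-157 the level was 3.89 and 4.31 FPKM with DMSO, 4.26 and 4.27 with thalidomide, 5.08 and 5.80 with BETi-211, and 1.06 and 1.23 with BETd-246. In MDA-MB-231 the level was 22.7 and 21.6 FPKM with DMSO, 27.4 and 19.7 with thalidomide, 6.66 and 6.14 with BETi-211, and 3.82 and 3.86 with BETd-246. In MDA-MB-468 the level was 18.4 and 19.4 FPKM with DMSO, 18.9 and 20.6 with thalidomide, 12.5 and 13.2 with BETi-211, and 3.26 and 3.48 with BETd-246. With BETi-211 both libraries were above the controls in MDA-MB-157 and below them in the other lines, and with BETd-246 all 6 libraries were below. BETd-246 left 27.4%, 16.8% and 17.4% of control. The limma changes were -1.27 (SE 0.090, adjusted p 5.28e-09), -2.29 (SE 0.090, adjusted p 3.14e-12) and -2.22 (SE 0.090, adjusted p 3.09e-12), the latter 2 at places 17 and 45 from the lowest.

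With BETi-211 SOX9 was at 130.1%, 28% and 66.6% of control. The limma changes were 0.31 (SE 0.090, adjusted p 0.00946), -1.68 (SE 0.090, adjusted p 2.45e-10) and -0.55 (SE 0.090, adjusted p 7.55e-05). The fall in MDA-MB-231 was at place 15 from the lowest, where the control libraries spread from 19.7 to 27.4 FPKM. The rise in MDA-MB-157 was lost without BETi-211 replicate 2 of that line (0.23, adjusted p 0.142). The BETi-211 effect differed between MDA-MB-157 and MDA-MB-231 by 1.99 (limma, adjusted p 1.77e-08).

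GATA3, a zinc finger factor of luminal differentiation on chromosome 10 (8045378 to 8075203, + strand), was expressed in MDA-MB-468 and weakly in MDA-MB-231. The cells of MDA-MB-468 had 5.55 and 5.84 FPKM with DMSO, 6.31 and 6.89 with thalidomide, 2.96 and 3.37 with BETi-211, and 1.36 and 1.17 with BETd-246. Those of MDA-MB-231 had 1.94 and 1.90 FPKM with DMSO, 2.01 and 1.91 with thalidomide, 0.281 and 0.253 with BETi-211, and 0.505 and 0.423 with BETd-246. BETd-246 gave the lowest values in MDA-MB-468 and BETi-211 the lowest in MDA-MB-231, and neither group overlapped the controls or the other. BETi-211 left 51.5% and 13.8% of control in these lines, and BETd-246 20.6% and 23.9%. The limma changes with BETi-211 were -0.78 (SE 0.051, adjusted p 1.73e-09) in MDA-MB-468 and -1.21 (SE 0.051, adjusted p 1.24e-11) in MDA-MB-231. With BETd-246 they were -1.65 (SE 0.051, adjusted p 1.05e-13) and -1.01 (SE 0.051, adjusted p 6.1e-11). In MDA-MB-157 GATA3 was at 0.0182 to 0.0415 FPKM in the controls and at 0.134 and 0.128 with BETi-211. That rise was called narrowly, 0.13 (SE 0.051, adjusted p 0.0441) by limma, and was lost without any 1 of 6 libraries (adjusted p 0.0597 to 0.164).

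XBP1 encodes a bZIP factor of the unfolded protein response, whose mRNA is spliced by the endoplasmic reticulum sensor IRE1 (ERN1). It lies on chromosome 22 (28794555 to 28800597, - strand), and it fell with both compounds in each line. The table has 1 value per gene, so spliced and unspliced XBP1 mRNA were not analysed here. The MDA-MB-157 libraries gave 77.1 and 76.3 FPKM with DMSO, 76.6 and 78.9 with thalidomide, 53.4 and 53.6 with BETi-211, and 34 and 35.2 with BETd-246. The MDA-MB-231 libraries gave 43.1 and 41.7 FPKM with DMSO, 38.7 and 43.9 with thalidomide, 27.7 and 28.8 with BETi-211, and 17.6 and 17.2 with BETd-246. The MDA-MB-468 libraries gave 99.3 and 102 FPKM with DMSO, 100.3 and 100.3 with thalidomide, 69.5 and 72.4 with BETi-211, and 45.4 and 37.8 with BETd-246. The order was controls, BETi-211 and BETd-246 in each line, without overlap. BETi-211 left 69.3%, 67.4% and 70.6% of control, and BETd-246 44.8%, 41.5% and 41.4%.

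By limma, the XBP1 changes were -0.52 (SE 0.056, adjusted p 1.12e-06), -0.55 (SE 0.056, adjusted p 4.92e-07) and -0.50 (SE 0.056, adjusted p 1.38e-06) with BETi-211. With BETd-246 they were -1.14 (SE 0.056, adjusted p 5.64e-11), -1.22 (SE 0.056, adjusted p 2.12e-11) and -1.26 (SE 0.056, adjusted p 1.05e-11). XBP1 was the member with no called difference between lines for either compound. The 95% intervals of those differences ran from -0.086 to 0.25 (MDA-MB-157 minus MDA-MB-231), -0.21 to 0.13 (MDA-MB-468 minus MDA-MB-231) and -0.048 to 0.29 (MDA-MB-157 minus MDA-MB-468) for BETd-246. For BETi-211 the same differences had intervals of -0.14 to 0.20, -0.12 to 0.22 and -0.19 to 0.15. Without BETd-246 replicate 1 of MDA-MB-468, whose 2 libraries stood at 45.4 and 37.8 FPKM, the difference MDA-MB-157 minus MDA-MB-468 was called (0.25, adjusted p 0.027).

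**Figure D2:**
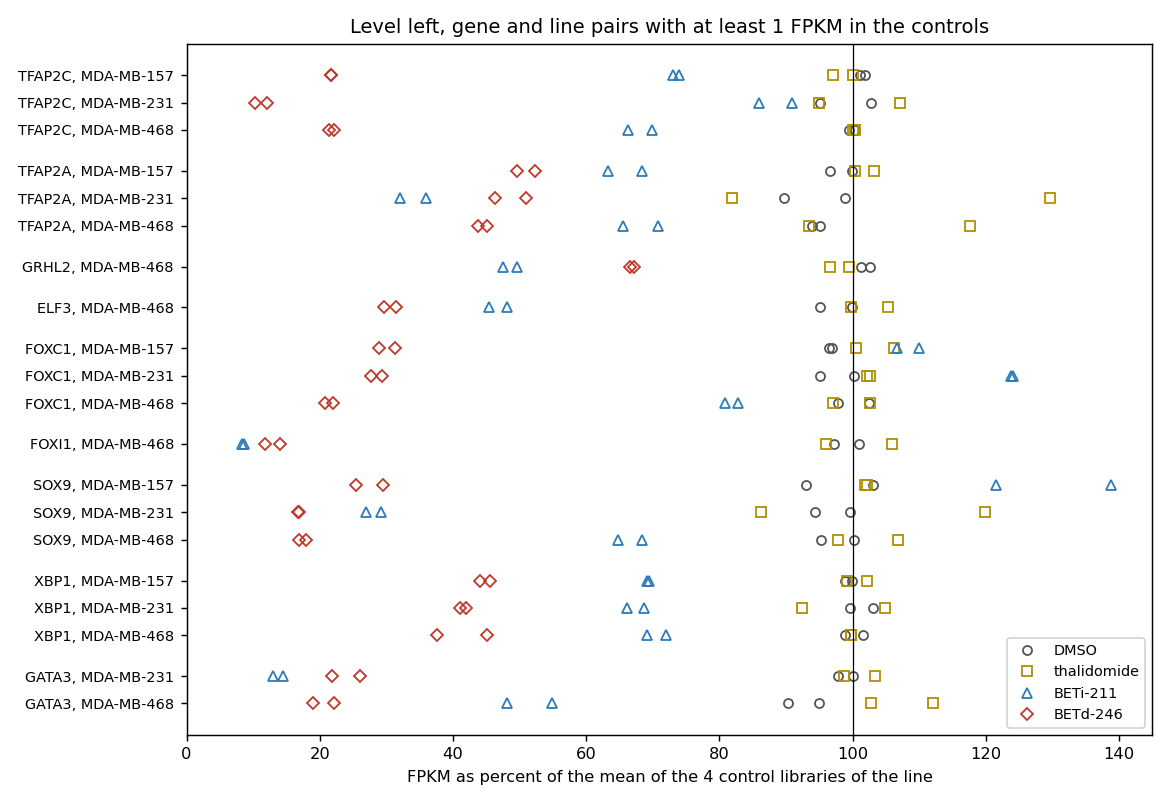
FPKM of each library as percent of the mean of the 4 control libraries of its line, for the 20 pairs of a gene and a line with a control mean of at least 1 FPKM, 1 row per pair and 1 symbol per library. All BETd-246 libraries lie below all controls, and the BETi-211 libraries lie above the controls in FOXC1 (MDA-MB-157 and MDA-MB-231) and SOX9 (MDA-MB-157).

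Set side by side at their different doses, the mean was lower with BETd-246 in 16 of the 20 expressed pairs and lower with BETi-211 in 4. Those 4 were FOXI1 and GRHL2 in MDA-MB-468 and GATA3 and TFAP2A in MDA-MB-231. In none of the 20 did the 2 libraries of one compound overlap those of the other. Neither count was made over all genes, so they do not set the members apart. No test was run between the compounds.

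**Figure D3:**
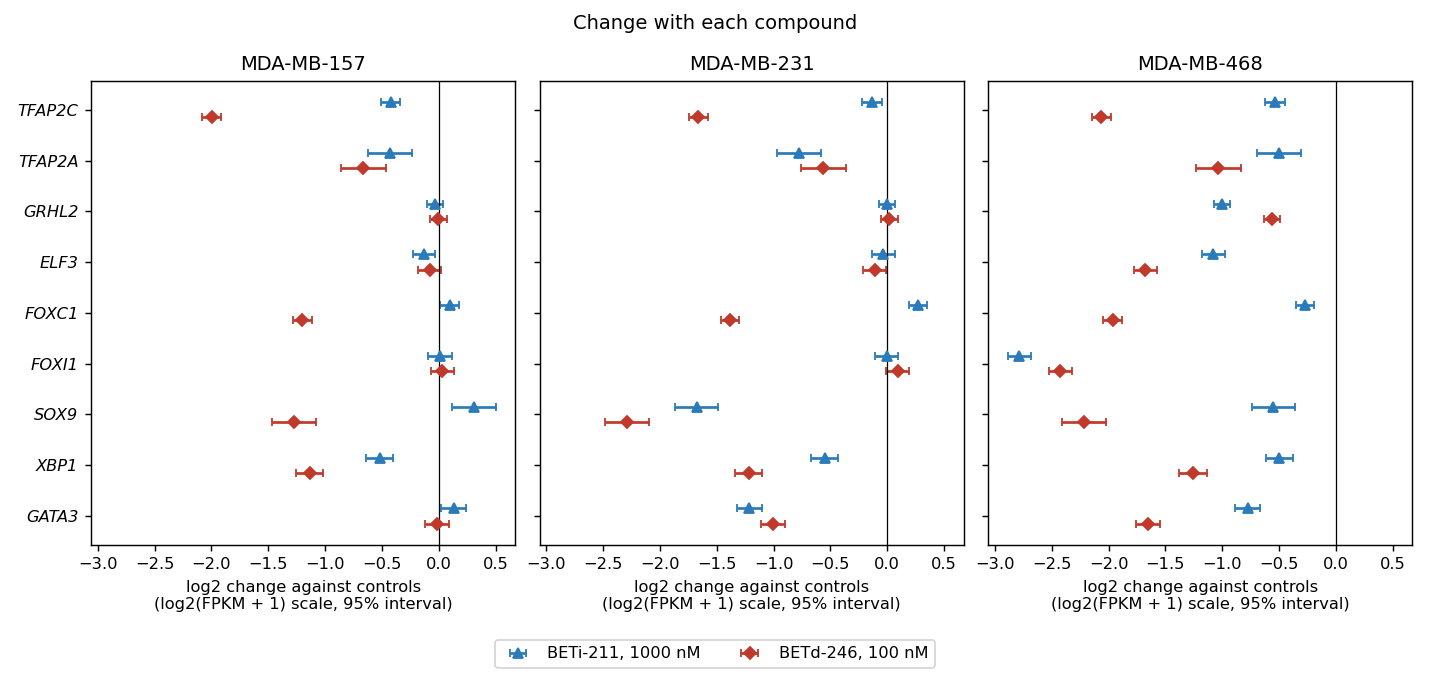
Change against the controls of the same line on the log2(FPKM + 1) scale (horizontal axis), with its 95% interval from limma, for each of the 9 genes (rows), with BETi-211 at 1000 nM (triangles) and BETd-246 at 100 nM (diamonds) in the 3 lines (panels). In MDA-MB-468 all points lie left of 0, from -2.79 for FOXI1 to -0.27 for FOXC1, both with BETi-211, whereas GRHL2 and FOXI1 lie near 0 in the other lines.

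At least 1 difference in response between lines was called for 8 of the 9 members, XBP1 being the exception. For BETd-246, 4 of the 9 genes had a called difference between MDA-MB-157 and MDA-MB-231, 7 between MDA-MB-468 and MDA-MB-231, and 6 between MDA-MB-157 and MDA-MB-468. Among all genes the shares were 11.2%, 13.3% and 13.1%. For BETi-211 the counts were 4, 7 and 6, against 16.5%, 21.9% and 21.6% of all genes. For GRHL2, ELF3 and FOXI1 the called differences set MDA-MB-468, which expressed them, against lines in which they were near 0 and had no level to lose. The same limit holds for the 4 called GATA3 differences that involve MDA-MB-157, where GATA3 was near 0. Of the members expressed in all 3 lines, SOX9 fell less with BETd-246 in MDA-MB-157 than in MDA-MB-231 (1.02, adjusted p 4.49e-05) or MDA-MB-468 (0.95, adjusted p 7.05e-05). FOXC1 fell more with BETd-246 in MDA-MB-468 than in MDA-MB-157 (difference MDA-MB-157 minus MDA-MB-468 0.77, limma adjusted p 5.77e-08). Its differences between MDA-MB-157 and MDA-MB-231 were smaller (0.19 for BETd-246 and -0.18 for BETi-211), and the calls were lost without any 1 of 7 libraries for BETd-246 (adjusted p 0.0509 to 0.187) and of 6 for BETi-211 (0.0716 to 0.145). For TFAP2A 1 of 6 differences was called, BETd-246 in MDA-MB-468 against MDA-MB-231 (-0.47, limma adjusted p 0.0245). It was lost without any 1 of 5 libraries (adjusted p 0.0511 to 0.105) and with a constant of 0.1 FPKM (-0.21, adjusted p 0.557). The BETi-211 differences of TFAP2A against MDA-MB-231 were not called, at 0.35 for MDA-MB-157 (limma adjusted p 0.0844) and 0.28 for MDA-MB-468 (adjusted p 0.153). With a constant of 0.1 FPKM they were called, at 0.81 (adjusted p 0.00585) and 0.85 (adjusted p 0.00299). They were also called with 0.5 FPKM and without thalidomide replicate 2 of MDA-MB-231 (0.46, adjusted p 0.00229, and 0.39, adjusted p 0.00638). The second was called too without thalidomide replicate 2 of MDA-MB-468 (0.36, adjusted p 0.0453). The GATA3 difference for BETd-246, MDA-MB-468 minus MDA-MB-231, was -0.65 (limma adjusted p 8.02e-06) and was lost with a constant of 0.1 FPKM (-0.33, adjusted p 0.162), the shares of control left being 20.6% and 23.9%.

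In the controls, MDA-MB-468 was the line with the highest level of 8 members, SOX9 being the exception. Of the 9 genes, 8 were called higher and 1 lower in MDA-MB-468 than in MDA-MB-231, beside 47.8% and 38.4% of all genes. Between MDA-MB-157 and MDA-MB-468 all 9 were called lower in MDA-MB-157, beside 42.1% of all genes called lower. Between MDA-MB-157 and MDA-MB-231, 5 were called higher and 3 lower, beside 50.1% and 37.2% of all genes, shares close to those of the members. The gap between MDA-MB-468 and MDA-MB-231 was widest for ELF3, 6.28, and GRHL2, 5.23. Every gene of the table reached a group mean of at least 1.219 FPKM, which ELF3, GRHL2 and FOXI1 did in MDA-MB-468 alone. Their higher level in that line is thus tied to their presence in the table, and the counts above include them. For SOX9 the control mean of MDA-MB-231 was 22.8 ± 3.27 FPKM and that of MDA-MB-468 19.3 ± 0.955 (SD, n = 4), and the libraries of the 2 lines overlapped. The call, -0.22 (adjusted p 0.0112) by limma, was lost without thalidomide replicate 1 of MDA-MB-231 (-0.11, adjusted p 0.0648). For GRHL2 and ELF3 the order of MDA-MB-157 and MDA-MB-231, both under 0.4 FPKM, is not settled, as quantile normalization turned its sign.

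Within each line, XBP1 had the highest control level among the members on the FPKM scale, which is per length. In MDA-MB-468 XBP1 (100.5 ± 1.17 FPKM) and ELF3 (93.3 ± 3.88) came first, their libraries not overlapping, followed by GRHL2 and TFAP2C at 36.6 ± 0.957 and 34.9 ± 0.145. GATA3 was lowest there at 6.15 ± 0.587. In MDA-MB-157 XBP1 (77.2 ± 1.13) and TFAP2C led, and FOXC1 and SOX9 (4.19 ± 0.189 and 4.18 ± 0.195) did not differ beyond their spread. In MDA-MB-231 XBP1 (41.9 ± 2.29) and SOX9 led, with FOXC1 (6.30 ± 0.217) and TFAP2C behind. TFAP2A and GATA3 (1.76 ± 0.367 and 1.94 ± 0.0473) overlapped in MDA-MB-231. All of these are SDs over the 4 control libraries, which mix DMSO and thalidomide.

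Thalidomide alone was compared with DMSO to see whether the second control changed the members. By limma 0 of the 9 genes were called in each line, beside 0.184%, 0% and 0% of all genes. At an unadjusted p below 0.05 the counts of members were 0, 0 and 1, and those of all genes 2093, 766 and 1980. The 1 member was GATA3 in MDA-MB-468, at 5.55 and 5.84 FPKM with DMSO and 6.31 and 6.89 with thalidomide (0.18, adjusted p 0.266 by limma). Without thalidomide replicate 2 of MDA-MB-231, TFAP2A (0.30, adjusted p 0.0275) and SOX9 (0.29, adjusted p 0.0152) were called in that line.

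Paralogs of the members and other epithelial transcription factors were counted in the same fit. Among all genes, BETd-246 lowered 32.4%, 33.3% and 33.7% and raised 19%, 14.8% and 20.1%. For BETi-211 these shares were 30.9%, 31.4% and 32.5% lowered and 14.9%, 18.7% and 21.3% raised. Of 25 listed paralogs 12 were in the table, and BETd-246 lowered 8, 8 and 12 of them and raised none. Their median changes were -0.28, -0.52 and -0.86. BETi-211 lowered 5, 6 and 9 and raised 5, 1 and 0 of the paralogs. ELF2, an ETS factor of wide expression, fell with both compounds in each line, with changes of -1.04, -1.56 and -1.46 with BETd-246 and -0.98, -1.02 and -1.35 with BETi-211. FOXQ1, a forkhead gene, was near 0 in MDA-MB-157 and changed by -1.69 and -2.17 with BETd-246 in the other lines. GATA2 and GATA6, zinc finger relatives of GATA3, fell with BETd-246 in all 3 lines, with changes of -1.07, -1.62 and -1.11 for GATA2 and -0.86, -1.52 and -1.16 for GATA6. With BETi-211 GATA6 rose in MDA-MB-157 (0.26, limma adjusted p 0.000445), as did SOX9, whose call was lost without BETi-211 replicate 2 of that line.

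Of 20 other epithelial transcription factors 15 were in the table, and BETd-246 lowered 6, 6 and 11 and raised 0. Among all genes it lowered 32.4%, 33.3% and 33.7% and raised 19%, 14.8% and 20.1%. The median changes of the list were -0.092, -0.11 and -0.91, so outside MDA-MB-468 the list as a whole changed little. With BETi-211, 5, 4 and 12 were lower and 4, 4 and 2 higher, beside 30.9%, 31.4% and 32.5% of all genes lower and 14.9%, 18.7% and 21.3% higher. The lowered share of the list was thus close to that of all genes in MDA-MB-157 and MDA-MB-231. CEBPB, CEBPD, KLF4 and KLF5, which act in epithelial growth and differentiation, are named for the size of their change with BETd-246. They were called lower with it in each line. The changes of CEBPB were -1.78, -1.40 and -2.44. With BETi-211 KLF5 was called higher in MDA-MB-157 and MDA-MB-231 and lower in MDA-MB-468, with changes of 0.49, 0.77 and -0.42 (limma adjusted p 8.55e-06, 3.51e-08 and 3.25e-05).

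Of 45 genes of epithelial junctions, keratins and epithelial splicing, BETd-246 in MDA-MB-468 raised 21 and lowered 6, beside 20.1% and 33.7% of all genes, with a median change of 0.11. BETi-211 in that line raised 11 and lowered 12, beside 21.3% and 32.5% of all genes. GRHL2 and ELF3 were lower with both compounds there. In MDA-MB-157 and MDA-MB-231, BETd-246 raised 8 and 4 of these genes, beside 19% and 14.8% of all genes. It lowered 0 and 4, beside 32.4% and 33.3%. BETi-211 raised 6 and 8, beside 14.9% and 18.7% of all genes, and lowered 3 and 9, beside 30.9% and 31.4%. In MDA-MB-468 with BETd-246, CLDN4, a tight junction gene and a known GRHL2 target, changed by -1.79 and PRSS8, a membrane protease, by -1.29. LLGL2, a polarity gene, rose there by 0.32 and MUC1, a mucin of apical membranes, by 0.38. CDH1 was not called there (0.10, adjusted p 0.0537 by limma), but it was called higher with BETi-211 in MDA-MB-468 (0.31, limma adjusted p 1.28e-05). With BETi-211 CLDN4 was not called in MDA-MB-468 (-0.036, limma adjusted p 0.589), where GRHL2 was lower than with BETd-246. CLDN4 also fell with BETd-246 in MDA-MB-231 (-0.89, limma adjusted p 2.86e-10), where GRHL2 was near 0. A link of CLDN4 to GRHL2 was not tested. Of 27 luminal and hormone receptor genes, which include XBP1 and GATA3, 21 were in the table. BETd-246 lowered 4, 4 and 7 and raised 4, 2 and 5 of these 21. Among all genes it lowered 32.4%, 33.3% and 33.7% and raised 19%, 14.8% and 20.1%, so the lowered share of the list was no larger. FOXA1 and RARA are named for the size of their change with BETd-246. FOXA1, a pioneer factor of luminal cells, stood at 12.7 FPKM in the controls of MDA-MB-468 and changed by -1.99 with BETd-246 and -0.62 with BETi-211. RARA, the retinoic acid receptor alpha gene, fell in each line with both compounds, with changes of -0.67, -0.98 and -1.41 with BETd-246.

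The list of XBP1 target genes of the secretory pathway held 34 genes, all in the table. It includes ATF6 and ERN1, whose product acts upstream of XBP1. BETd-246 raised 12, 11 and 8 of the list and lowered 6, 5 and 7, beside 19%, 14.8% and 20.1% of all genes raised and 32.4%, 33.3% and 33.7% lowered. BETi-211 raised 14, 18 and 19 and lowered 2, 2 and 3, beside 14.9%, 18.7% and 21.3% of all genes raised and 30.9%, 31.4% and 32.5% lowered. Both compounds lowered XBP1 in the same libraries. A link of the list to XBP1 was not tested, and the spliced form of its mRNA was not analysed. ERN1, which encodes IRE1, changed by 1.25, 1.31 and 0.81 with BETi-211 and by -0.22, -0.15 and -0.32 with BETd-246 (limma adjusted p 5.46e-12, 2.22e-12 and 4.21e-10, and 0.00105, 0.017 and 2.71e-05). HERPUD1, of endoplasmic reticulum associated degradation, also moved in opposite directions, by 0.23, 0.56 and 0.96 with BETi-211 and -1.41, -1.08 and -1.21 with BETd-246. DNAJB9, an endoplasmic reticulum chaperone partner, fell with BETd-246 in each line (-1.08, -1.03 and -1.84). SRP19, a part of the signal recognition particle, was called lower with both compounds in each line, with changes of -0.22, -0.31 and -0.29 with BETd-246.

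**Figure D4:**
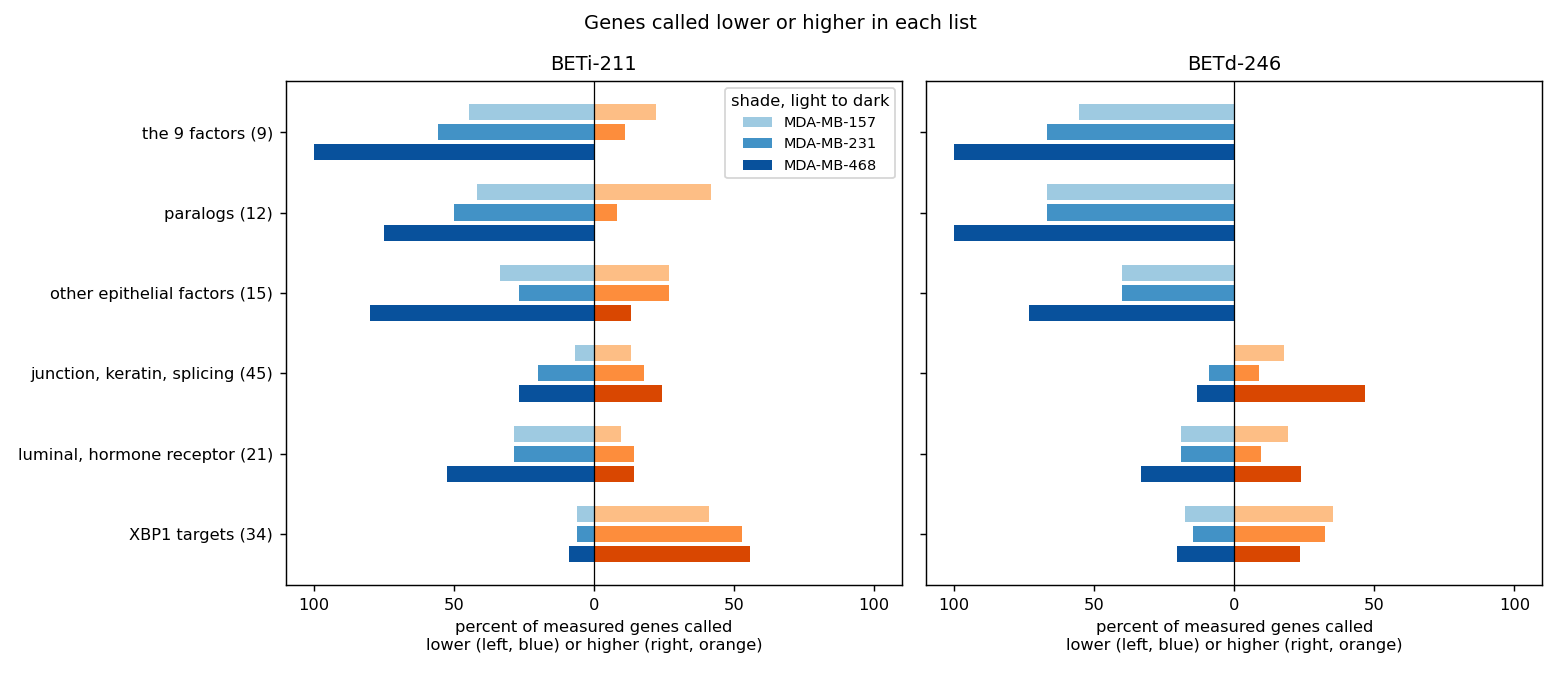
Percent of the measured genes of each list called lower (left of 0) or higher (right of 0) with BETi-211 and with BETd-246, 1 bar per line from light (MDA-MB-157) to dark (MDA-MB-468), with the number of measured genes in brackets. With BETd-246 the members, their paralogs and the other epithelial factors have bars on the lower side alone, while the junction genes and XBP1 targets have bars on both sides or on the higher side.

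The levels of BRD2 and BRD3, which encode BET proteins, were read in the same libraries. BRD2 rose with BETi-211 (0.83, 1.20 and 1.43) and fell with BETd-246 (-1.15, -0.77 and -1.19), each called by limma. BRD3 had values of 0.14, 0.086 and 0.11 with BETi-211, none called, and fell with BETd-246 (-0.20, -0.26 and -0.23).

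The genes with the profile most like each member over the 12 group means were found among 11473 genes with a group mean of at least 5 FPKM. The 12 points share 3 lines and 4 treatments, so the correlation is a description. For GRHL2 they were APCDD1, MACC1 and BARX2 (Pearson r 0.9999 to 0.9996), and for ELF3 PRSS8, BCL11B and EPHA1 (0.9997 to 0.9985). For FOXI1 they were PRR15L, EDN2 and BMP2 (0.9882 to 0.9825). All 3 of these members were near 0 outside MDA-MB-468. For TFAP2C the nearest were ZNF397, ZNF607 and NRIP1 (0.9937 to 0.9833), for FOXC1 ZNF350, FBXO31 and HINFP (0.9892 to 0.98), and for XBP1 UHRF2, RIPK4 and YRDC (0.9829 to 0.9708). For SOX9 ZNF749, TRIM27 and ZNF274 came first (0.9693 to 0.9523). For TFAP2A RFWD2 and UTP14A and for GATA3 TMEM79 and CCDC9 were among the nearest 3, next to 1 clone-named transcript each.

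With the mean of each line taken off, the values of GRHL2, ELF3 and FOXI1 are near 0 in 2 lines, so their correlations rest on the 4 group means of MDA-MB-468. By this measure the nearest genes were GGNBP2 for TFAP2C (0.9974), GEMIN4 for TFAP2A (0.9838), GJA5 for GRHL2 (0.9989) and FBXO31 for FOXC1 (0.9949). They were METTL23 for SOX9 (0.977), GSG2 for XBP1 (0.9954) and MAML2 for GATA3 (0.9833). PRSS8 was again among the nearest 3 of ELF3 (0.9872), and EDN2 and BMP2 among those of FOXI1 (0.9868 and 0.9861). FBXO31 for FOXC1, PRSS8 for ELF3 and EDN2 and BMP2 for FOXI1 were thus near by both measures. Among the members expressed in each line, TFAP2C correlated at 0.962 with FOXC1 and at 0.958 with XBP1 by this second measure.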

How the data were processed

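The 24 libraries came from total RNA after removal of ribosomal RNA and were prepared with a TruSeq v2 kit, which does not mark strand, per the labels' protocols. The authors deposited FPKM values of 14114 genes. No header names this unit, and it was read from how the values behave. Bowtie 0.12.8, bcl2fastq 2.17.1.14 and the build GRCh38.p5 are named, per the submitters' processing notes. Not given in the sources used here are the FPKM program, its annotation and any gene filter. Every gene reached a mean of at least 1.219 FPKM in some group, so a gene near 0 in 1 line is kept through another. Each column carries the name of its sample.

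The test was that of limma 3.58.1 (R 4.3.3) on log2(FPKM + 1), with 1 coefficient for each of 12 groups, a variance trend, no robust step and no replicate block (12 residual and 3.32 prior degrees of freedom). Each compound was set against the average of both control coefficients of its line. Tests were two-sided, with Benjamini-Hochberg adjustment over 14114 genes within each comparison. The fit was tested on simulated data. Percent of control uses means of FPKM and is given where the control mean is at least 1 FPKM.

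The members and the 8 further gene lists were chosen with earlier results of these data known. From each list up to 4 genes were named, those with the largest absolute change with BETd-246 averaged over the lines among genes called in at least 1 line, besides receptor, epithelial and BET genes. A further gene that this rule names is not reported here. Likeness was measured among genes with a group mean of at least 5 FPKM, and the nearest 3 were taken. Alternatives were the constants 0.1 and 0.5, quantile, median-of-ratios, column-total and upper-quartile scaling, filters at 1 and 5 FPKM, no trend, a robust fit, each line alone, either control alone, a replicate block and leaving out each library. Of the identifiers, 13951 of 14114 were found in GENCODE 29, which gave the positions.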

Additional observations from a re-analysis of the deposited data

Results flagged for a closer look

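Tests of the difference itself between 2 lines gave 34 calls among 54 differences of a member's response (limma, adjusted p below 0.05 over all genes). In the single comparisons, 11.2% to 13.3% of all genes were called for BETd-246 and 16.5% to 21.9% for BETi-211. The line pairs share libraries, so these calls are not independent. Each call is listed here as the first line's change minus the second's on the log2(FPKM + 1) scale. For BETd-246, MDA-MB-157 minus MDA-MB-231 gave TFAP2C -0.34, FOXC1 0.19, SOX9 1.02 and GATA3 0.99. MDA-MB-468 minus MDA-MB-231 gave TFAP2C -0.40, TFAP2A -0.47, GRHL2 -0.58, ELF3 -1.57, FOXC1 -0.58, FOXI1 -2.52 and GATA3 -0.65. MDA-MB-157 minus MDA-MB-468 gave GRHL2 0.56, ELF3 1.60, FOXC1 0.77, FOXI1 2.45, SOX9 0.95 and GATA3 1.64. GATA3 was near 0 in MDA-MB-157, as GRHL2, ELF3 and FOXI1 were outside MDA-MB-468, so the differences with those lines include no measurable fall there. With a constant of 0.1 FPKM the GATA3 difference of -0.65 became -0.33 (limma adjusted p 0.162). That constant also took TFAP2A from -0.47 to -0.21 (limma adjusted p 0.557) and FOXC1 from 0.19 to 0.097 (limma adjusted p 0.478). It turned the TFAP2C differences of -0.34 and -0.40 to 0.68 and 0.67.

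For BETi-211, MDA-MB-157 minus MDA-MB-231 gave TFAP2C -0.29, FOXC1 -0.18, SOX9 1.99 and GATA3 1.35. MDA-MB-468 minus MDA-MB-231 gave TFAP2C -0.40, GRHL2 -1.0, ELF3 -1.04, FOXC1 -0.54, FOXI1 -2.78, SOX9 1.13 and GATA3 0.44. MDA-MB-157 minus MDA-MB-468 gave GRHL2 0.97, ELF3 0.95, FOXC1 0.37, FOXI1 2.80, SOX9 0.86 and GATA3 0.91. The FOXC1 difference of -0.18 was not called with a constant of 0.1 FPKM (-0.19, limma adjusted p 0.0851).

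Among 27 sets of 4 control libraries, 3 held a library far from the others by Dixon's ratio, and chance gives about 1 in 20 sets. For FOXI1 the other 3 controls were at 0, which fixes the ratio for any value above 0, so that set says nothing against the chance rate. The 3 were TFAP2A in MDA-MB-468, thalidomide replicate 2 (14.5 FPKM), FOXI1 in MDA-MB-231, thalidomide replicate 2 (0.00909 FPKM), and SOX9 in MDA-MB-157, DMSO replicate 1 (3.89 FPKM).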

How the results depend on the processing

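For BETd-246 against controls, no member's call was lost or reversed under any setting, and 11 values gained a call, all of ELF3 or FOXI1 below 1 FPKM. With a constant of 0.1 FPKM the BETd-246 difference for TFAP2C turned to 0.68 (MDA-MB-157 minus MDA-MB-231) and 0.67 (MDA-MB-468 minus MDA-MB-231), and with 0.5 FPKM to 0.043 and 0.008. With 0.5 FPKM 2 members, against 4, differed between MDA-MB-157 and MDA-MB-231 in the BETd-246 effect. With quantile normalization, MDA-MB-157 against MDA-MB-231 turned to -0.008 for GRHL2 and -0.36 for ELF3, and the FOXC1 difference for BETd-246 between these lines to -0.062. The causes were not tested. Leaving out single libraries, BETi-211 in MDA-MB-157 gave 3 to 6 called members and thalidomide in MDA-MB-231 gave 0 to 2. The 1 FPKM filter removed no gene.

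Deviations of same-numbered libraries correlated weakly and unevenly, at -0.114 to 0.147, -0.207 to 0.195 and -0.121 to 0.335 in the 3 lines. No pairing by replicate number was assumed in the main fit, and some pairing in MDA-MB-468 is not excluded. With a replicate block the members called were 5, 7 and 9 with BETd-246 and 5, 6 and 9 with BETi-211. Depth is known only as an estimate, so no counting interval was given for levels near 0.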

Other observations

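Of 18 measured mesenchymal genes, BETd-246 raised 11, 6 and 5 and lowered 4, 3 and 0 in the 3 lines, beside 19%, 14.8% and 20.1% of all genes raised and 32.4%, 33.3% and 33.7% lowered. The 4 genes named here are those with the largest average change with BETd-246. SNAI2, which encodes the repressor SLUG, stood at 41.0 FPKM in the controls of MDA-MB-157 and 13 in MDA-MB-231, and changed by -2.19 and -2.35 with BETd-246 and by -0.66 and -0.60 with BETi-211 (limma, adjusted p at most 1.83e-09). TWIST1 was expressed in MDA-MB-157 alone (38.9 FPKM) and changed by -0.94 with BETi-211 and -0.83 with BETd-246. SNAI1 changed by -1.90 with BETd-246 in MDA-MB-157, whereas in MDA-MB-468 it rose by 0.87, from a control mean of 0.455 FPKM. TAGLN, a smooth muscle actin-binding protein gene, rose with BETd-246 in each line by 0.24, 0.21 and 0.34.

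Among endothelial and fibroblast genes, KDR, a VEGF receptor gene, rose with BETi-211 in MDA-MB-157 by 0.61 and fell by 0.35 with BETd-246. COL3A1, LUM and FAP in MDA-MB-157 rose with BETd-246 by 0.23, 0.22 and 0.16, and the immune marker CD14 by 0.23.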
